A study of Mus musculus with 6 samples.

Results

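The 10 genes described here are hypoxia-induced genes that act outside the glycolytic chain: Vegfa, Adm, Bnip3, Bnip3l, Pdk1, Slc2a1, Ak4, P4ha1, Ndrg1 and Ankrd37. They were found by symbol among the 53323 loci of the deposited tables, and all 10 passed the filter on low counts that left 16787 genes to test. RNA-seq was run on total RNA of mouse embryonic fibroblasts, the connective-tissue cells grown out of a mouse embryo. The wild-type (WT) and the Fbxw7 knockout (KO) genotype had 3 libraries each, all cells being grown in the same serum-containing DMEM, with no oxygen level or hypoxia treatment named in the labels. The labels gave no strain, embryo age, sex, passage or clone, and did not say how or in which exons Fbxw7 was disrupted. Whether the 3 libraries of each genotype stand for separate embryos or cultures is not stated either, so a p-value here measures the spread between these samples alone, and that spread may be technical.

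Hypoxia-inducible factor (HIF) is a pair of proteins, an alpha subunit (HIF1A or EPAS1) and its partner ARNT. In oxygen, prolyl hydroxylases of the EGLN family mark the alpha subunit, and the VHL ubiquitin ligase removes it. Without that mark the pair binds a short motif, the hypoxia response element with the core RCGTG (R is A or G), and raises transcription of genes for glucose uptake, glycolysis, mitochondrial turnover, matrix building and blood vessel growth. FBXW7 is the substrate-recognising part of another ubiquitin ligase, SCF, which marks MYC, cyclin E, JUN and NOTCH among other proteins.

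The sequence just before each gene's start is shown because that is where the HIF core has been described for several of these genes. RefSeq promoter windows of 250 bases before the start (assembly GRCm38.p6) were found for 8 of the 10 genes, 13 windows in all, and not for Ndrg1 and Bnip3l. Both strands were searched for ACGTG and GCGTG, the 2 spellings of the core. ACGTG was present in a window of 6 of the 8 genes, and of 24.7% of the 10202 tested genes with a window. A gene with more windows has more places for a match, and the 8 genes had 13 windows, against 13022 for the 10202. ACGTG lay before the first RefSeq start of 4 genes (Bnip3, Ankrd37, P4ha1 and Slc2a1), and for Vegfa and Ak4 only before a later RefSeq start. These later starts, 46025163 for Vegfa and 101419703 for Ak4, lie inside the genes' GENCODE spans, which begin at 46032369 (minus strand) and 101419277 (plus). The RefSeq start of Ankrd37, at position 45999850, also lies inside the span of the gene in GENCODE, which begins at 46005707 on the minus strand. GCGTG was present for 8 of the 8, and for 48.7% of tested genes. The windows were not matched on base composition, and a match is a description of letters, not a binding site. In the stretches below, written 5′ to 3′ on the gene's strand, capitals mark ACGTG, or GCGTG for Adm and Pdk1, where ACGTG was absent from the window. CACGT and CACGC are the same motifs on the opposite strand, and the CACGTG of Bnip3 is ACGTG on both strands at once, a spelling also known as the E-box that MYC binds; CACGTG was present for 2 of the 8 genes (Bnip3 and Ak4) and 9.72% of tested genes. The stretches are chr7:138909587-138909646 (minus strand) for Bnip3, chr8:46000041-46000100 (minus) for Ankrd37, chr10:59323236-59323295 (plus) for P4ha1, chr4:119108654-119108713 (plus) for Slc2a1, chr7:110627547-110627606 (plus) for Adm and chr2:71873114-71873173 (plus) for Pdk1.
Bnip3: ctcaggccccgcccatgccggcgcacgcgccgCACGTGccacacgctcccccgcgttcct
Ankrd37: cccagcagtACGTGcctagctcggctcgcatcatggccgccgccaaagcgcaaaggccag
P4ha1: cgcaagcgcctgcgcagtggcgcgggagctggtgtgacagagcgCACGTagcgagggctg
Slc2a1: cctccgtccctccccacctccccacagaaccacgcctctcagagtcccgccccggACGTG
Adm: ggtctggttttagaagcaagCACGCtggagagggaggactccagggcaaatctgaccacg
Pdk1: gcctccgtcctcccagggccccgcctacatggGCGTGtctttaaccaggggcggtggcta
In these stretches the ACGTG nearest to a RefSeq start was that of P4ha1, 16 bases upstream, followed by Slc2a1 at 36 and Bnip3 at 107. The Slc2a1 match, at positions 119108709 to 119108713, crosses the GENCODE start of that gene, 119108711. Ankrd37 had one at 241 bases, shown above, and another at 6 bases. The GCGTG shown lay 90 bases before the start of Adm and 78 before that of Pdk1.

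**Figure D1:**
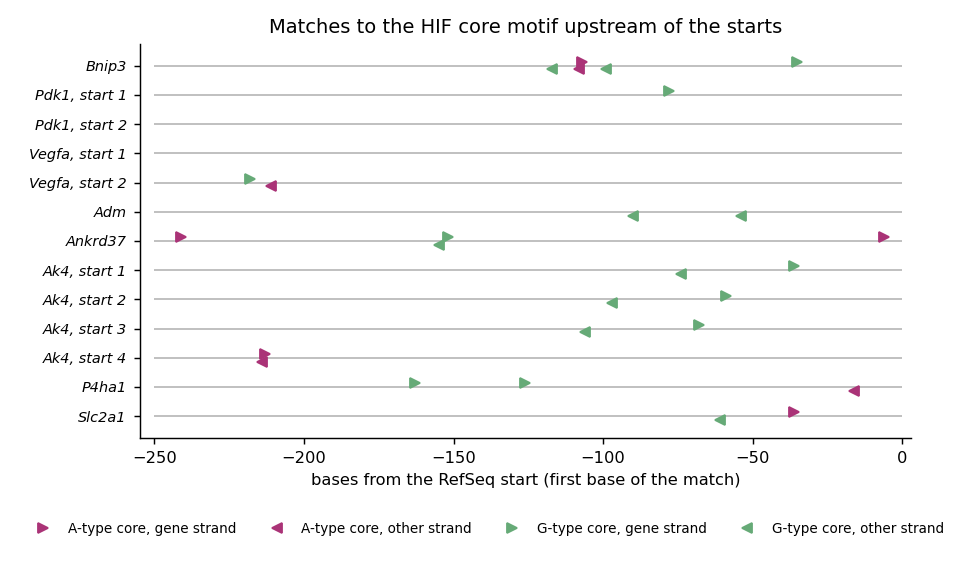
Matches to the HIF core in the 13 RefSeq promoter windows of 8 genes, 1 row per window; the x axis is the distance in bases from the annotated start, magenta marks ACGTG (A-type), green GCGTG (G-type), and the arrowhead points along the strand of the match. ACGTG sits from 6 to 241 bases upstream in 6 of the 8 genes, and Adm and Pdk1 hold GCGTG alone.

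The libraries held 55720129 to 64198455 estimated fragments. Within a genotype, replicates 1 and 2 were close to each other (median chi-square 7.55 times sampling noise for WT and 6.56 times for KO), and replicate 3 stood apart from both (27.3 to 44.1 times), against 46.3 to 79.3 times between genotypes. Results are therefore also given without replicate 3. Fibroblast markers were abundant, with all 10 detected and a summed level of 23560 to 31821 CPM (counts scaled per library total). Single fibroblast markers did move with genotype: of 9 tested, Lum (13.8 to 233 CPM, edgeR adjusted p = 0.00612) and Dcn (631 to 1855 CPM, adjusted p = 0.0252) rose and Vim (3832 to 2152 CPM, adjusted p = 0.00972) fell. The call of Dcn was lost without WT replicate 2 or any 1 of the KO replicates, and that of Vim without KO replicate 1. WT replicate 3 was the lowest library for Lum, Dcn and Col3a1 (387 CPM, against 1138 and 1240 CPM in the other WT libraries). The part of these markers in the results below was not tested. Markers of other cell types were low: endothelial markers summed to 0.973 to 4.07 CPM with Cldn5 and Tie1 at 0, macrophage and blood markers to 0.631 to 2.26 CPM with 4 of 8 at 0, epithelial markers to 0.101 to 0.454 CPM with Krt8 and Krt14 at 0, muscle and fat markers to 0.652 to 3.21 CPM with Myod1 at 0, and neural markers to 1.26 to 2.11 CPM with Sox2 at 0. Within these lists Tek (1.87 to 0.340 CPM), Cd68 (1.19 to 0.448 CPM) and Fabp4 (2.28 to 0.782 CPM) fell in KO, at edgeR adjusted p = 0.0227, 0.0299 and 0.0227. Each of these 3 calls was lost without WT replicate 1, WT replicate 2, KO replicate 1 or KO replicate 2, and that of Cd68 also without either replicate 3. Fbxw7 itself stood at 29.3 ± 0.869 CPM (SD, n = 3) in WT and 26.4 ± 1.97 CPM in KO (edgeR adjusted p = 0.332), which does not check the genotype because the deleted exons are unknown. Sex-linked transcripts moved with genotype: the locus of Xist held 1.47 ± 1.09 CPM in WT and 911 ± 126 CPM in KO, while the Y-linked Ddx3y, Eif2s3y, Kdm5d and Uty stood at 31.7% to 50.9% of WT in KO. A difference in the embryos' sex therefore cannot be told apart from genotype in any result below. In bulk RNA, fewer cells making a transcript and less RNA per cell cannot be told apart either.

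The 10 genes were selected on their KO and WT levels in this same comparison, as known hypoxia-induced genes put together with its results in view, so these levels are a description and carry no test. In 9 of the 10 genes every KO library lay above every WT library (19.2% of all tested genes did so), and in the other, Adm, every KO library lay below every WT library (18.4% of tested genes). In either direction 37.7% of tested genes had groups that did not overlap. In the fit over all genes 7 of the 10 passed the threshold as higher in KO, against 8.03% of the genes tested, and 0 passed as lower, against 8.08%. At an unadjusted p under 0.05 edgeR gave 9 higher and 1 lower, against 16.1% and 15.5% of all genes tested. DESeq2 called 8 higher and 1 lower, the latter being Adm, against 10.4% and 11.3% of all genes to which it gave an adjusted p. The median log2 fold change (KO over WT) was 1.21 over the 10 genes and 0.01 over all genes tested. On either side of the adjusted threshold of 0.05 lay Slc2a1 inside it, with a log2 fold change of 0.73 ± 0.18 (SE), and Bnip3l outside it, with 0.34 ± 0.10.

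**Figure D2:**
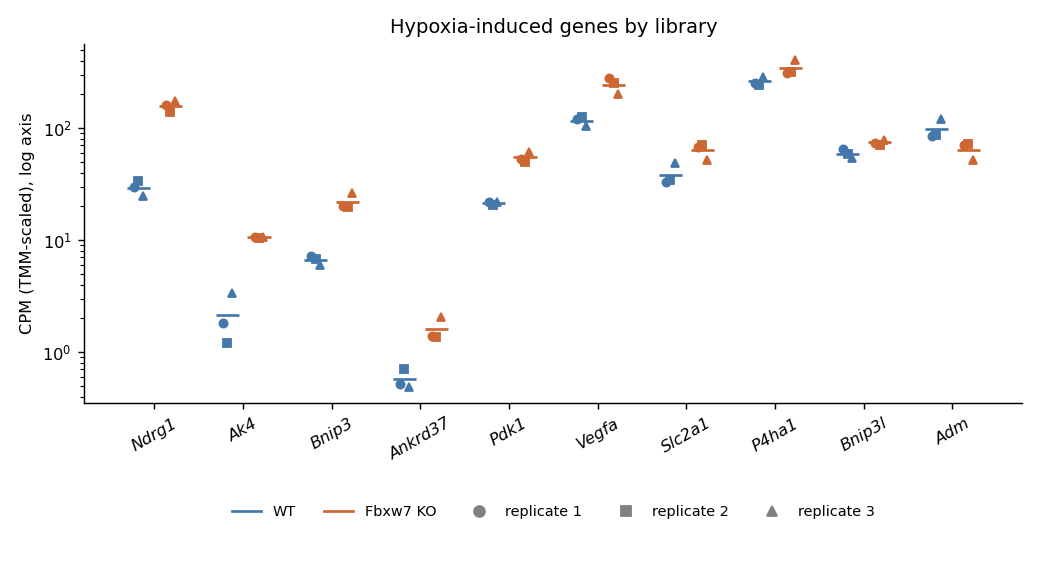
Level of each of the 10 genes in CPM (log axis) in WT (blue) and KO (orange); each point is a library, its shape gives the replicate number, and the line is the group mean. KO points lie above all WT points for 9 genes and below them for Adm.

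The secreted signals went in opposite directions. Vegfa (chr17:46016993-46032369, minus strand) encodes the main growth factor for blood vessels, and its WT libraries 1, 2 and 3 held 119.9, 124 and 104 CPM, against 277, 254 and 202 CPM in KO. The lowest KO library was thus well above the highest WT library, a mean of 244 ± 38.5 against 116 ± 10.96 CPM (SD, n = 3 each), 2.11-fold, with a log2 fold change of 1.08 ± 0.14. Adm (chr7:110627661-110629820, plus strand), the precursor of the vessel-dilating peptide adrenomedullin, held 84.8, 87.5 and 120.5 CPM in WT, against 70.0, 71.3 and 51.3 CPM in KO. KO stood at 65.8% of WT (log2 fold change -0.60 ± 0.18), and most of that distance came from replicate 3: it was the highest WT library and the lowest KO library. Without replicate 3 of both genotypes the log2 fold change of Adm was -0.29.

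Of the mitophagy receptors, outer mitochondrial membrane proteins that tether mitochondria to the autophagy machinery, Bnip3 stood much farther from WT than its relative Bnip3l. Bnip3 (chr7:138890836-138909519, minus strand) held 7.18, 6.79 and 5.93 CPM in WT, against 20.2, 19.5 and 26.4 CPM in KO, 3.32-fold by the means (log2 fold change 1.73 ± 0.16). Without replicate 3 of both genotypes the log2 fold change of Bnip3 was 1.51. Bnip3l (chr14:66985239-67008877, minus strand), also called Nix, held 64.5, 58.3 and 53.7 CPM in WT, against 74.2, 71.1 and 77.9 CPM in KO. The groups of Bnip3l did not overlap, but the highest WT and the lowest KO library were close, and the means differed 1.27-fold. Per transcript length Bnip3l remained the more abundant of the pair, at 18.03 ± 1.32 against 4.201 ± 0.476 FPKM (fragments divided by transcript length and by the library's size) in WT and 22.1 ± 0.766 against 13.2 ± 2.04 FPKM in KO.

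Slc2a1, Pdk1 and Ak4, which act in glucose uptake, pyruvate use and nucleotide balance, were each higher in KO. Slc2a1 (chr4:119108711-119137983, plus strand) encodes GLUT1, the glucose importer of the cell surface, and held 32.7, 34.3 and 48.4 CPM in WT, against 68.0, 71.2 and 51.8 CPM in KO. The difference between replicates 3 was small, 48.4 against 51.8 CPM, while replicates 1 and 2 were each about 1.06 apart on the log2 scale. Over the 3 libraries the means were 38.4 ± 8.66 and 63.7 ± 10.4 CPM, 1.66-fold, and without replicate 3 the log2 fold change of Slc2a1 was 1.06. Pdk1 (chr2:71873224-71903858, plus strand), a kinase that switches off pyruvate dehydrogenase, had the tightest WT group, 21.7, 20.7 and 21.9 CPM. Its KO libraries held 53.2, 49.8 and 60.7 CPM, 2.54-fold by the means (log2 fold change 1.35 ± 0.10). Ak4 (chr4:101419277-101466995, plus strand), an adenylate kinase of the mitochondrial matrix, held 1.82, 1.21 and 3.37 CPM in WT, against 10.7, 10.4 and 10.7 CPM in KO. The KO libraries of Ak4 were nearly alike, while WT replicate 3 was the highest of its group, and the ratio of means, 4.96 (log2 fold change 2.31 ± 0.34), rests on 73 estimated fragments in the lowest library. With limma on log2(FPKM + 1) the log2 fold change of Ak4 was 1.19, since a pseudocount shrinks the ratio of a rare transcript.

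P4ha1 (chr10:59323296-59373304, plus strand), the catalytic subunit of the prolyl hydroxylase that stabilises collagen, was among the most abundant of the 10 genes and among the least different. WT libraries held 253, 242 and 286 CPM and KO libraries 307, 316 and 402 CPM, 1.31-fold by the means. Replicate 3 was the highest library of each genotype, and the log2 fold change of 0.39 ± 0.13 became 0.25 without KO replicate 3. Ndrg1 (chr15:66929318-66969640, minus strand), a stress-responsive protein linked to growth arrest and lipid traffic, had the greatest ratio of the 10. It held 30.02, 33.6 and 24.6 CPM in WT, against 159, 139 and 173 CPM in KO, 29.4 ± 4.54 against 157 ± 17.3 CPM, 5.34-fold (log2 fold change 2.42 ± 0.14). Its lowest KO library, at 139 CPM, was far above its highest WT library, at 33.6 CPM.

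Ankrd37 (chr8:45996902-46005707, minus strand), a small ankyrin-repeat protein, was the rarest by CPM. WT libraries held 0.521, 0.714 and 0.490 CPM and KO libraries 1.41, 1.36 and 2.06 CPM, resting on 30 to 121 estimated fragments, with a ratio of means of 2.80 (log2 fold change 1.48 ± 0.28, and 0.81 with limma on log2(FPKM + 1)). Without replicate 3 of both genotypes the log2 fold change of Ankrd37 was 1.16. On the opposite strand the annotated span of Ankrd37 shares 57 bases with that of Ufsp2, at 64.3 CPM in WT and 59.2 CPM in KO, and 6405 bases with that of Lrp2bp, at 0.464 and 0.426 CPM. Use of strand in the counting is not given in the sources used here, so the value of Ankrd37 is uncertain. Ndrg1, Bnip3, Adm and Slc2a1 also overlap antisense genes, and none of these had a mean above 0.267 CPM in either genotype.

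**Figure D3:**
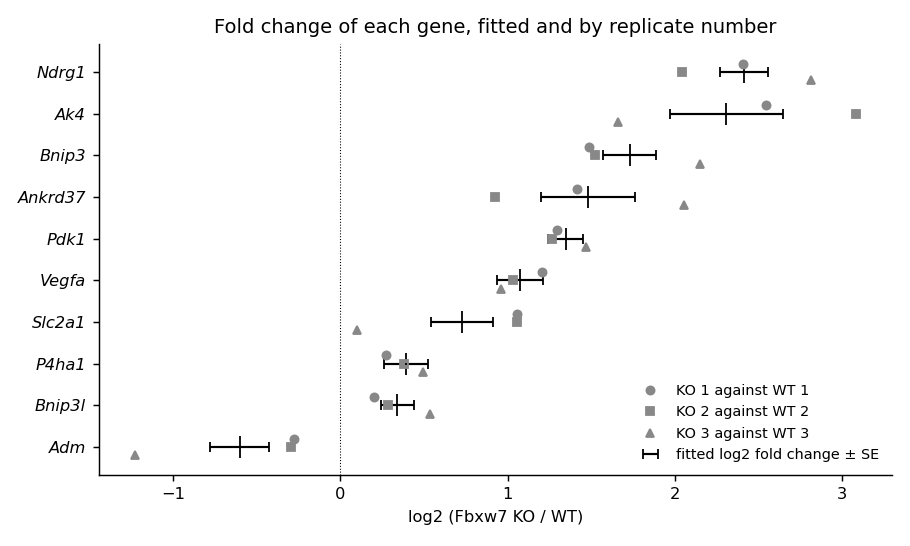
Fitted log2 fold change (KO over WT) of the 10 genes with its standard error as bars, and in grey the log2 ratio of same-numbered replicates. Ndrg1 and Ak4 lie farthest above 0, and Adm lies below 0. The points of replicate 3 lie below the others for Adm, Ak4, Slc2a1 and Vegfa, and above them for Bnip3, Ankrd37 and Ndrg1 among others.

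Replicate 3 did not shift the genes as a block. In WT it lay below the mean of replicates 1 and 2 for 5 genes and above it for 5, and in KO below for 3 and above for 7. The sign of that shift differed between WT and KO for 6 genes. The greatest shift in WT was that of Ak4, 1.18 on the log2 scale, followed by Slc2a1 with 0.53, and the greatest in KO was that of Ankrd37, 0.57. The log2 ratio of same-numbered replicates was above 0 at all 3 numbers for 9 genes, which follows from their groups not overlapping and adds nothing to it. This ratio ran from 2.04 to 2.81 for Ndrg1, from 0.10 to 1.06 for Slc2a1 and from -1.23 to -0.28 for Adm.

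Per transcript length the order of the genes differed between the genotypes. In WT the most abundant were P4ha1, 85.2 ± 7.91 FPKM, and Adm, 80.6 ± 18.4 FPKM, whose ranges overlapped, then Vegfa with 56.7 ± 6.11 FPKM. In KO the leading pair was Vegfa, 121 ± 20.9 FPKM, and P4ha1, 109 ± 14.9 FPKM, again with overlapping ranges. Ndrg1 ranked sixth in WT at 10.2 ± 1.34 FPKM, where its range overlapped that of Slc2a1 (13.2 ± 3.11 FPKM). In KO it stood at 52.2 ± 5.04 FPKM, overlapping Adm at 50.8 ± 9.44 FPKM. Bnip3l, Slc2a1, Pdk1 and Bnip3 followed in KO at 22.1, 20.7, 15.7 and 13.2 FPKM, each overlapping its neighbour in this order. Ankrd37 and Ak4 were the least abundant in both genotypes, at 0.820 ± 0.137 and 0.495 ± 0.253 FPKM in WT and at 2.199 ± 0.409 and 2.38 ± 0.0108 FPKM in KO, and could not be put in order in either.

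**Figure D4:**
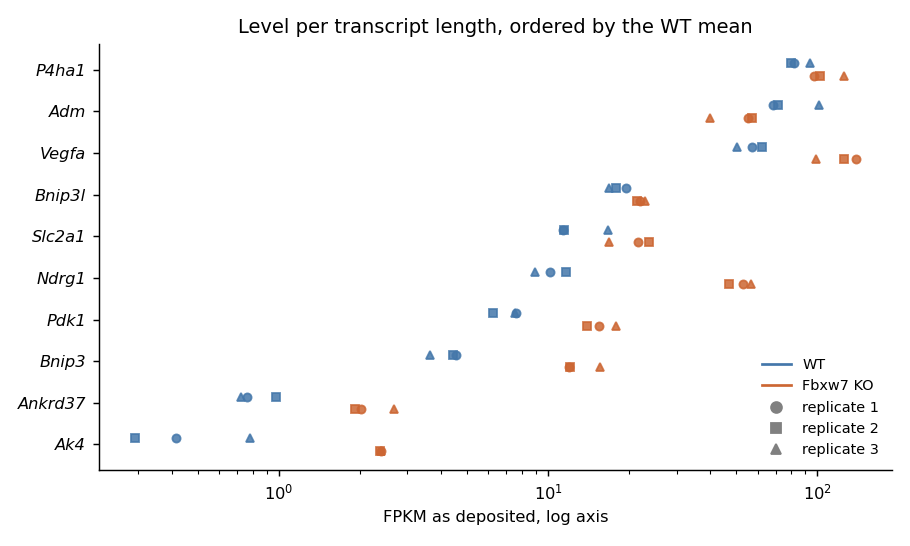
Level of the 10 genes per transcript length (FPKM as deposited, log axis), with 1 point per library in WT (blue) and KO (orange) and genes ordered by their WT mean. WT means span from 0.495 FPKM for Ak4 to 85.2 FPKM for P4ha1, and Vegfa has the highest KO mean, 121 FPKM.

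Each of the 10 genes was compared with the mean profile of the group (log2 CPM centred per gene over the 6 libraries). Pdk1 was nearest to it, with a root mean square difference of 0.124, followed by Vegfa with 0.197, and Adm was farthest, with 0.893. Among 8908 other genes with a mean of at least 10 CPM, the nearest were Tpd52 (0.0471), Uck2 (0.0583), Gpt2 (0.0590), AU020206 (0.0682) and Tbx18 (0.0862). Uck2, a pyrimidine salvage kinase, held 104 ± 5.61 CPM in WT and 229 ± 10.2 CPM in KO, and Gpt2, a mitochondrial alanine aminotransferase, 58.8 ± 1.96 and 130.01 ± 8.91 CPM.

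Close relatives of the 10 genes, listed by gene family with earlier results of these data known, went both ways. The list leaves out Slc2a3 and P4ha2, which were placed with the further HIF targets. Slc2a3 passed as higher there (log2 fold change 1.25, edgeR adjusted p = 0.0048), and P4ha2 did not pass. Of 22 tested paralogs 5 rose and 4 fell in KO (edgeR, adjusted over all 16787 genes), against 16.1% of all tested genes in either direction, and their median log2 fold change was -0.14. In the pyruvate dehydrogenase kinase family Pdk3 rose beside Pdk1, from 30.4 ± 3.29 to 51.05 ± 0.996 CPM (log2 fold change 0.75 ± 0.10, edgeR adjusted p = 0.00355), while Pdk2 (11.02 and 10.6 CPM, adjusted p = 0.867) and Pdk4 (8.09 and 5.85 CPM, adjusted p = 0.0944) did not pass. Among the VEGF ligands Vegfd, a growth factor for lymphatic vessels, fell from 127 ± 23.4 to 58.3 ± 9.72 CPM (log2 fold change -1.12 ± 0.17, adjusted p = 0.00518). Vegfb (44.6 and 46.2 CPM, adjusted p = 0.871) and Vegfc (31.4 and 30.003 CPM, adjusted p = 0.85) did not pass. Adm2, which encodes the related peptide intermedin, rose from 1.21 ± 0.520 to 5.61 ± 0.573 CPM (log2 fold change 2.21 ± 0.31, adjusted p = 0.00393), the opposite direction to Adm. Ndrg4 fell from 115 ± 5.88 to 78.9 ± 4.11 CPM (log2 fold change -0.55 ± 0.09, adjusted p = 0.00634). The paralogs called numbered 4 without WT replicate 1, WT replicate 2 or KO replicate 1 and 5 without KO replicate 2; Pdk3, Vegfd, Adm2 and Ndrg4 passed in each.

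Receptors and partner proteins of the 10 gene products also went both ways, with 3 of 23 tested genes higher and 5 lower in KO (13% and 21.7%, against 8.03% and 8.08% of all tested genes) and a median log2 fold change of -0.24. Of the VEGF receptors, Nrp2, a co-receptor, rose from 344 ± 39.0 to 651 ± 27.3 CPM (log2 fold change 0.92 ± 0.11, edgeR adjusted p = 0.00233). Nrp1, the other neuropilin co-receptor, fell from 82.0 ± 9.20 to 51.5 ± 6.57 CPM (log2 fold change -0.67 ± 0.13, adjusted p = 0.0128), a call that was lost without WT replicate 1, WT replicate 2 or KO replicate 1. Kdr, the main signalling receptor for VEGFA, fell from 5.59 ± 2.26 to 0.703 ± 0.261 CPM (log2 fold change -2.99 ± 0.39, adjusted p = 0.00274). Kdr is also a gene of endothelial cells; the endothelial markers summed to 1.81 to 4.07 CPM in WT and 0.973 to 1.19 CPM in KO, and their part in this result was not tested. Flt1, a decoy for the same ligand, held 220 and 233 CPM (adjusted p = 0.879). Txnip, which removes GLUT1 from the cell surface, rose from 183 to 311 CPM (log2 fold change 0.76 ± 0.12, adjusted p = 0.00541), and Pdp2, a phosphatase that undoes the work of PDK1, fell from 24.5 to 15.2 CPM (log2 fold change -0.69 ± 0.12, adjusted p = 0.00901). Of the adrenomedullin receptor parts, Ramp3 fell (log2 fold change -1.43 ± 0.31, adjusted p = 0.0197), as did Calcrl (-0.57 ± 0.15, adjusted p = 0.0437), both calls that were lost without WT replicate 1, WT replicate 2 or KO replicate 2, and that of Calcrl also without KO replicate 1. Ramp1 did not pass (log2 fold change 0.26, edgeR adjusted p = 0.618), and Ramp2 shared its locus with Vps25 and was not counted. The partners called numbered 4 without WT replicate 1 or 2 and 5 without KO replicate 1 or 2, and Nrp2, Kdr, Txnip and Pdp2 passed in each.

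Among 35 further HIF targets that were tested, 14 rose in KO (40% against 8.03% of all tested genes) and 0 fell, with a median log2 fold change of 0.36 (edgeR; 1 lower at an unadjusted p under 0.05, against 15.5% of all genes, and 0 lower by DESeq2, against 11.3%). Without WT replicate 3 the number that fell was 2, and without replicate 3 of both genotypes 5. Over all genes tested, 1568 of 17229 and 3494 of 16926 fell at these settings. The list was chosen with earlier results of these data known, so the count is not independent evidence of a direction. Slc16a3, the lactate exporter MCT4, rose from 2.74 ± 0.562 to 28.04 ± 3.21 CPM (log2 fold change 3.35 ± 0.19, edgeR adjusted p = 8.68e-05), farther than any of the 10 genes. Stc2, a secreted glycoprotein, rose from 9.01 ± 0.407 to 24.7 ± 1.202 CPM (log2 fold change 1.46 ± 0.11, adjusted p = 0.000283). Plod1, a collagen lysyl hydroxylase, rose from 43.1 ± 6.22 to 109 ± 5.11 CPM (log2 fold change 1.34 ± 0.12, adjusted p = 0.000695), and Ero1l, an oxidase of the endoplasmic reticulum, from 55.6 ± 0.814 to 134 ± 20.2 CPM (log2 fold change 1.27 ± 0.12, adjusted p = 0.000784). Like Adm, some well-known targets did not follow: Hilpda, a lipid droplet protein, held 9.44 ± 0.588 and 9.27 ± 0.570 CPM (adjusted p = 0.91), and P4ha2, the sister subunit of P4ha1, held 199 ± 35.8 and 156 ± 21.5 CPM (adjusted p = 0.188).

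Of 18 glycolytic genes 11 rose and 2 fell (61.1% and 11.1%, against 8.03% and 8.08% of all tested genes), with a median log2 fold change of 0.66. Gapdh, Pgk1, Pgam1 and Eno1, counted among the 11, held only 3.97, 5.42, 8.03 and 20.5 CPM in WT. Aldoa and Ldha held 423 and 199 CPM. Cufflinks divides reads shared by gene copies by estimate, so the levels of these 4 genes are uncertain, and the cause was not tested. Eno2 rose from 40.1 to 84.96 CPM (log2 fold change 1.08 ± 0.11, edgeR adjusted p = 0.000984), Gpi1 from 89.1 to 141 CPM (adjusted p = 0.0018) and Pfkl from 70.1 to 142 CPM (adjusted p = 0.00477), whereas Hk1 fell from 195 to 129 CPM (log2 fold change -0.60 ± 0.08, adjusted p = 0.0038). Leaving out WT replicate 1 or WT replicate 2 left 4 that rose, against 5 without KO replicate 1 and 7 without KO replicate 2; Eno2, Gpi1, Pfkl and Hk1 passed in each. Of the genes that fell, Pfkfb4 (log2 fold change -0.58, adjusted p = 0.0497) was lost whichever of the 6 libraries was left out, which left 1, Hk1.

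Of 10 tested genes of the oxygen-sensing machinery 3 rose and 0 fell (30% and 0%, against 8.03% and 8.08% of all tested genes). At an unadjusted p under 0.05 in edgeR 6 were higher and 0 lower (16.1% and 15.5% of all genes), and DESeq2 called 4 higher and 0 lower (10.4% and 11.3%). Egln3, a prolyl hydroxylase that is itself a HIF target, rose from 2.56 ± 0.774 to 18.1 ± 3.66 CPM (log2 fold change 2.82 ± 0.25, edgeR adjusted p = 0.000635). Egln1, the main oxygen sensor, rose from 68.9 ± 4.10 to 91.9 ± 1.78 CPM (adjusted p = 0.0159) and Epas1, the second alpha subunit, from 2.40 ± 0.423 to 6.25 ± 2.44 CPM (adjusted p = 0.0256). Without WT replicate 1, WT replicate 2, KO replicate 1 or KO replicate 2, Egln3 alone of this list passed. Hif1a shared its locus in the deposited table with Snapc1 and Gm49321; that locus held 282, 289 and 238 CPM in WT, against 697, 575 and 768 CPM in KO, and the part due to Hif1a is not known.

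**Figure D5:**
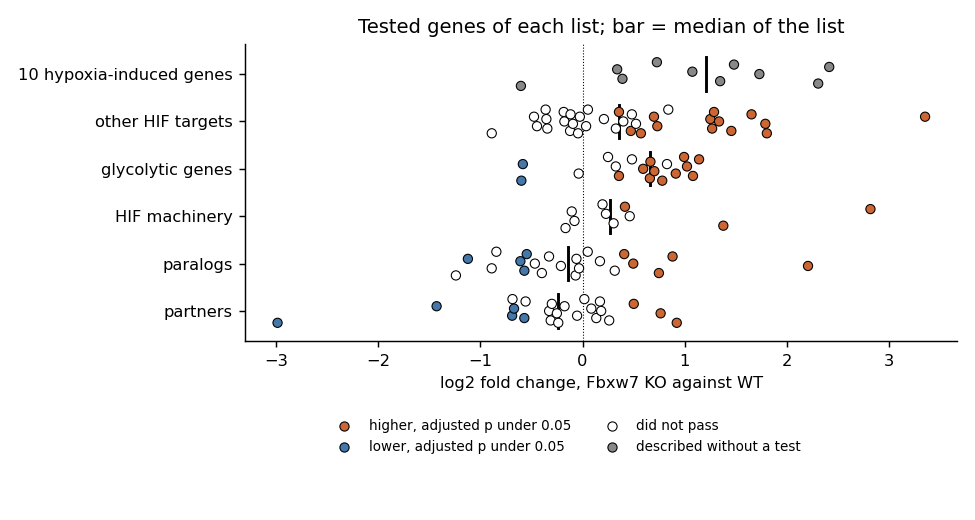
Log2 fold change (KO over WT) of every tested gene in the 10-gene group and in the 5 lists beside it, 1 point per gene, with the median as a bar; filled orange and blue points passed the threshold as higher and lower, open points did not, and grey points are described without a test. The medians are 1.21 for the 10 genes, 0.36 for further HIF targets, 0.66 for glycolytic genes, 0.27 for the machinery, -0.14 for paralogs and -0.24 for partners.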

How the data were processed

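RNA of 3 WT and 3 Fbxw7 KO fibroblast libraries was analysed from 2 tables that the authors deposited, one of estimated counts (expected fragments per locus) and one of FPKM; per the file headers both have the columns of Cufflinks output. TopHat2 2.1.1, SAMtools 1.5, deepTools and Cufflinks 2.2.1 and the build mm10 are named by the submitters' processing notes; the annotation and use of strand are not given in the sources used here. Up to 1000 fragments, 88.9% to 89.6% of a library's deposited estimated counts were whole multiples of a single step (tolerance 0.05): the libraries had been scaled, from totals of 51153944 to 70627021 fragments. Cufflinks divides reads shared by gene copies by estimate. Counting intervals are not given, since reads carried no molecular identifiers.

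Of 53323 loci, 1317 without a name and 9 named loci marked HIDATA (estimation skipped) were left out, leaving 51997. The design had assumed whole counts; the expected counts were therefore rounded. The test was the robust quasi-likelihood F test of edgeR 4.0.16 (R 4.3.3), two-sided, with filterByExpr, TMM factors and genotype as sole term, adjusted by Benjamini-Hochberg over 16787 genes (threshold 0.05). It was tested on simulated data. CPM use TMM factors and carry the SD over libraries; fold changes carry standard errors. The 10 genes and all lists were chosen with earlier results of these data known. Named are the 10 genes, Fbxw7, up to 4 genes with the smallest adjusted p of each list, the 5 most similar profiles, and other list members as values.

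Positions came from GENCODE M21 (mm10) and promoter sequences from RefSeq (GRCm38.p6). Alternatives were RLE or upper-quartile factors, library size only, counts divided by the step, no count filter or a CPM of at least 1 in 3 libraries, DESeq2 1.42.0, a block for replicate number, each library or replicate 3 of both genotypes left out, and limma 3.58.1 on log2 of the deposited FPKM plus 1 or 0.1 (mean FPKM at least 1), or unfiltered.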

Additional observations from a re-analysis of the deposited data

How the results depend on the processing

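The directions of all 10 genes held under the 18 alternatives: of 180 single values, 167 lay within 1 SD of the reported log2 fold change, 13 moved farther and 0 reversed. This SD is that of log2 CPM between libraries of a genotype, pooled for each gene. It ran from 0.105 for Bnip3l to 0.523 for Ak4, so noisier genes had more room. The median log2 fold change of the 10 genes, 1.21, was 1.31 with library size only, 1.14 without replicate 3 of both genotypes, 0.92 with limma on log2(FPKM + 1) with or without the filter and 1.11 with limma on log2(FPKM + 0.1), and 1.17 to 1.23 when 1 library was left out. Between 5 and 9 of the 10 genes passed as higher. It was 5 without WT replicate 1, where 632 of all 17220 genes tested were higher. It was 9 without replicate 3 of both genotypes, where 3499 of 16926 were higher. Adm passed as lower with no count filter, with DESeq2 and without replicate 3 of both genotypes. Over all genes these settings called 1310 of 27625, 1896 of 16769 and 3494 of 16926 lower. The 10 genes were selected on their levels in this comparison, so their counts are a description and carry no test.

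Genes called over all genes numbered 2705, of them 1348 higher and 1357 lower; with library size only, 1968 were higher and 1026 lower. Leaving out WT replicate 1 gave 1302 calls, WT replicate 2 1271, KO replicate 1 1169 and KO replicate 2 1462, with a range of 1169 to 3282 over the 6 libraries left out in turn; the total was 6993 without replicate 3 of both genotypes; and 1562, 1615 and 1182 with limma on log2(FPKM + 1), on log2(FPKM + 0.1) and without a filter. Glycolytic genes called higher numbered 4 to 12 with 1 library left out and 7, 7 and 4 with the same limma settings. HIF machinery genes called numbered 1 to 4 with 1 library left out, 6 with library size only, 6 without replicate 3 of both genotypes and 1 with limma without a filter. Paralogs called numbered 4 to 9 with 1 library left out and 4 with limma without a filter, and partners called 4 to 10 with 1 library left out and 14 without replicate 3 of both genotypes. Further HIF targets called higher numbered 6 with limma without a filter. Leaving out libraries reduces the samples in the fit, and apart from that the cause was not tested.

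Same-numbered WT and KO libraries were not paired in the main fit. Their deviations from the group means correlated at 0.0065, 0.0869 and 0.0704, against -0.113 to 0.0672 for libraries of different number. Not every sample correlated best with its own number. Whether same-numbered libraries shared a batch was not tested. With the replicate number as a block, 2356 genes were called, the median of the 10 genes was 1.21, and the counts were 12 for further HIF targets higher, 10 for glycolytic genes higher, 2 for the machinery, 7 for paralogs and 8 for partners.

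Depth limits Ankrd37 and Ak4 most, with 30 and 73 estimated fragments in their lowest libraries.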

Other observations

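A pair of list genes not described above stood apart in a single library. Cited2, a competitor of HIF for its coactivator, held 48.2, 53.5 and 145 CPM in WT replicates 1, 2 and 3 and 45.01, 46.9 and 41.2 CPM in KO. Hk2, a hexokinase, held 17.3, 18.1 and 38.9 CPM in WT, against 31.8, 34.7 and 26.6 CPM in KO. For both, replicates 1 and 2 were close within a genotype and WT replicate 3 was the highest of the 6 libraries, and neither passed the threshold (edgeR adjusted p = 0.163 for Cited2 and 0.513 for Hk2). Without WT replicate 3, Hk2 passed as higher in KO (adjusted p = 0.0100), while Cited2 did not pass (adjusted p = 0.218). Both genes were chosen after their values were seen.

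The pyruvate dehydrogenase complex, which PDK1 switches off, was mixed. Dlat, its acetyltransferase core, rose from 82.4 to 117 CPM (log2 fold change 0.50 ± 0.10, edgeR adjusted p = 0.0136). Pdha1, the subunit that PDK1 phosphorylates, held 326 CPM in WT and 260 CPM in KO (adjusted p = 0.0538), and Dld, Pdhb and Pdhx did not pass. The call of Dlat was lost without WT replicate 1, WT replicate 2, KO replicate 1 or KO replicate 2 (adjusted p from 0.0579 to 0.0747).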
